A study of Mus musculus with 2 samples.

Results

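The 41 genes described here mark the early lymphoid programme and the B lineage. They were taken by name: a probe set belonged to a gene when the platform annotation assigned it to that gene alone. All 41 genes had at least 1 such probe set, and together they had 109. They are 41 of the 18193 genes that the array covers in this way.

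The samples were 2 sorts of mouse bone marrow KLS cells, labelled lin-, c-kit+ and Sca+, where haematopoietic stem cells and the earliest progenitors lie. One sample came from mice with conditional inactivation of TIF1γ (gene Trim33), labelled TIF1γ Δ/Δ, and the other from wild type mice. Each genotype was measured on 1 Affymetrix array. No replicate error, standard deviation or p-value can therefore be given, and every difference is one between these 2 arrays. None of the sources used here gives the Cre line, the age of the mice or how many were pooled. All values are MAS5 signal intensities, which MAS5 computes from the perfect-match and mismatch probes of a probe set and scales array by array.

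B cell development starts inside this fraction. Multipotent progenitors first switch on lymphoid genes at a low level, a step called priming, which depends on Ikaros family factors, PU.1, E proteins and the cytokine receptors FLT3 and IL-7R. Commitment then follows through EBF1 and PAX5, and the immunoglobulin heavy chain is rearranged by the RAG recombinase and displayed with a surrogate light chain as the pre-B receptor. Mature B cell and plasma cell genes belong to later stages, outside the marrow fraction that was sorted.

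A probe set was counted as measured on an array when it reached that array's median signal, a floor of 11.7 in TIF1γ Δ/Δ cells and 14.4 in wild type cells. A gene was represented by whichever probe set was brightest by mean log2 signal. Differences are log2 signal of TIF1γ Δ/Δ minus wild type, after removal of the median difference of -0.024 over probe sets measured on both arrays. A gene below the floor on 1 array is given as at least N-fold, and a gene below it on both arrays has no fold. Of the 41 genes, 27 were measured on both arrays, 9 on the wild type array only, 1 on the TIF1γ Δ/Δ array only, and 4 on neither. Over all genes measured on at least 1 array, 6.05% were measured on the wild type array only and 5.54% on the TIF1γ Δ/Δ array only. Signals of different probe sets are not on a common scale per molecule, so levels are compared between arrays and not between genes.

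The targeted gene Trim33 gave 172 in TIF1γ Δ/Δ cells and 379 in wild type cells in its representative probe set, a log2 difference of -1.12. A second probe set gave 34.5 in TIF1γ Δ/Δ cells and 61.0 in wild type cells (log2 -0.80). The sources used here do not place these probe sets inside or outside the deleted segment. The ratio of 3′ to 5′ signal was 7.38 in TIF1γ Δ/Δ cells and 7.86 in wild type cells for Gapdh, and 5.54 in TIF1γ Δ/Δ cells and 5.14 in wild type cells for actin. Kit, which encodes the c-kit sort marker, gave 495 in TIF1γ Δ/Δ cells and 384 in wild type cells (log2 0.39). Flt3, a receptor of lymphoid-primed progenitors, gave 534 in TIF1γ Δ/Δ cells and 464 in wild type cells (log2 0.23). Ly6a, the gene for Sca-1, was not analysed here.

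Across the members, 8 of the 37 genes with a fold stood 2-fold or more apart, 2 of them higher and 6 lower in TIF1γ Δ/Δ cells. The higher ones, Satb1 and Mef2c, are transcription factors of early lymphoid priming. The lower ones were Rag1, the surrogate light chain genes Igll1 and Vpreb1, the pre-B receptor adaptor Blnk, Ms4a1 (CD20) and Cd52. The 2 Igll1 probe sets disagreed in direction, and without Igll1 there were 5 lower genes. A probe set shared by Vpreb1 and Vpreb2, not used here, was near even (log2 0.14). Of all 11439 genes with a fold, 6.16% were lower by that margin and 2.6% higher. Of the members with a fold, 16.2% were lower (13.9% without Igll1) and 5.41% higher. The median difference was -0.32 over these 37 members and 0.017 over all genes with a fold. Rag2, Vpreb3, Blnk, Blk, Ms4a1, Cd22, Pou2f2, Spib and Lax1, 9 members in all, passed the floor through the wild type array alone, which fixed their direction. Over the 27 members measured on both arrays the median was -0.19, against 0.044 over all genes measured on both.

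**Figure D1:**
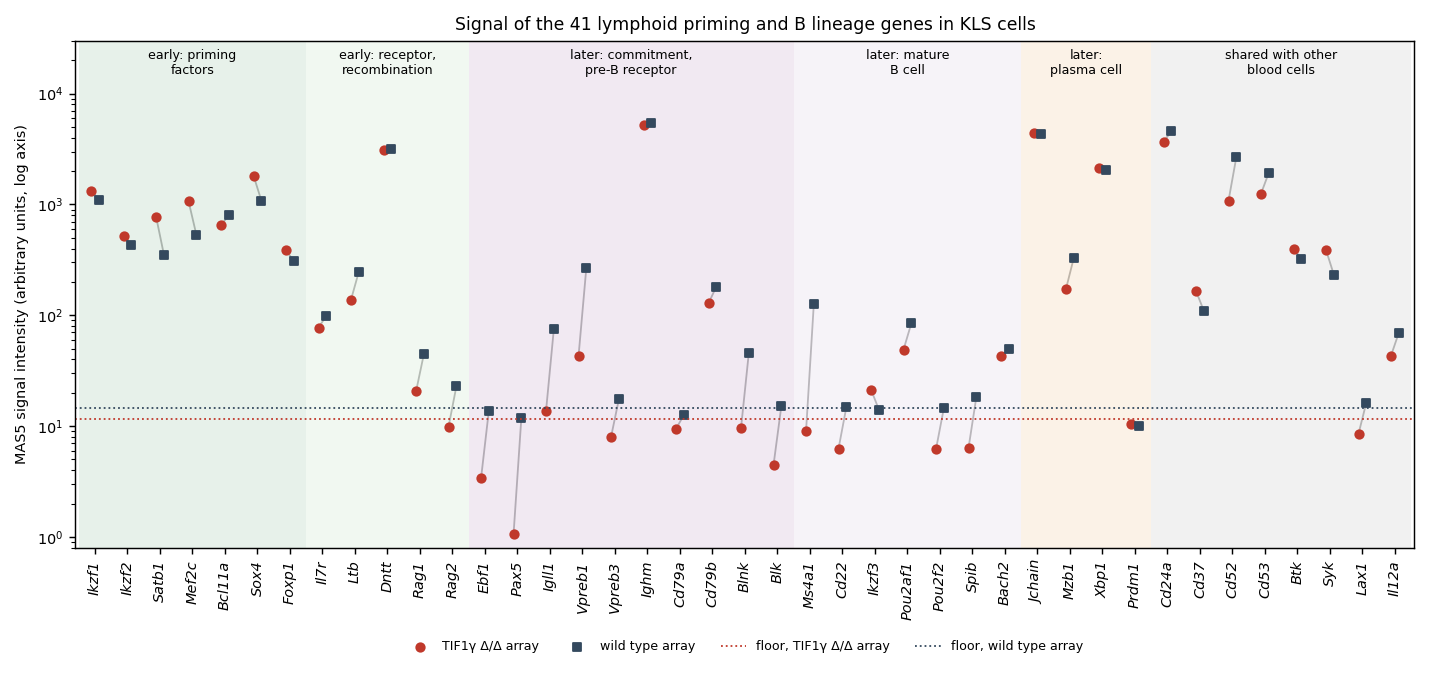
MAS5 signal (log axis, arbitrary units) of the representative probe set of each of the 41 genes, grouped by role, on the TIF1γ Δ/Δ array (circles) and on the wild type array (squares), 1 array each. Dotted lines mark the floors of 11.7 and 14.4; Satb1 and Mef2c stand at least 2-fold higher on the TIF1γ Δ/Δ array, while Blnk and Ms4a1 lie under the floor there and Igll1 just above it.

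Among genes with a fold, those of low signal had lower values in TIF1γ Δ/Δ cells over the array as a whole, and several members are among them. Among all genes with a mean signal under 50, 12.6% were at least 2-fold lower and the median difference was -0.27. Of the 13 members in that range, 4 were at least 2-fold lower (Rag1, Igll1, Blnk and Ms4a1), with a median of -0.56. Between 50 and 500 the share of all genes at least 2-fold lower was 3.98% and the median 0.13, and 1 of 12 members, Vpreb1, was that much lower, with a median of -0.40. At 500 and above 1.63% of all genes were at least 2-fold lower, and so was 1 of 12 members, Cd52. The unequal floors alone give a gene that lies at the floor of both arrays a difference of -0.28. Genes measured on the wild type array only, 709 in all, therefore always kept a bound of -0.28 or lower. Of the 650 measured on the TIF1γ Δ/Δ array only, those whose bound fell under 1-fold lost their fold. Another 10365 genes were measured on both arrays, of 11439 with a fold. The 9 members measured on the wild type array only all had a mean signal under 50. So 9 of the 13 members there could only be lower, Blnk and Ms4a1 among them. The median and shares under a signal of 50 thus depend partly on this rule, those of the members more than those of all genes.

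**Figure D2:**
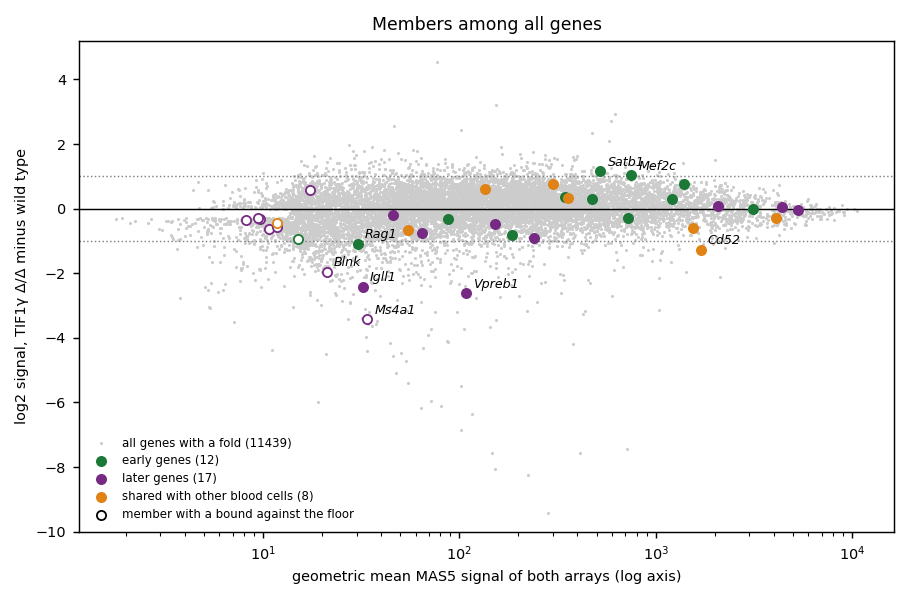
Difference in log2 signal (TIF1γ Δ/Δ minus wild type) against the geometric mean signal of both arrays (log axis) for all 11439 genes with a fold (grey), with the members coloured as early, later or shared. Open symbols are bounds against the floor; the named genes are the 8 members at least 2-fold apart (dotted lines), of which Cd52 is the only lower one at a mean signal of 500 or more.

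Of the 7 transcription factors of early priming, 2 reached 2-fold, both higher, against 2.6% of all genes with a fold. In the representative probe set 6 had a positive difference and Bcl11a a negative one, and the median was 0.35. This tally depends on the probe set rule. The mean of all probe sets is the geometric mean of their signals, and it takes in probe sets under the floor. For Ikzf2 it includes 1421643_at, under the floor on both arrays with 0.93 in TIF1γ Δ/Δ cells and 6.67 in wild type cells. With the mean of all probe sets of a gene, Satb1 (log2 0.49) and Mef2c (log2 0.82) were above 0 and the other 5 below it, with Ikzf1 at -1.09, Ikzf2 at -1.17, Sox4 at -0.17, Foxp1 at -0.030 and Bcl11a at -0.20. Satb1, a chromatin organiser needed for lymphoid development from stem cells, gave 775 in TIF1γ Δ/Δ cells and 353 in wild type cells, or 2.23-fold higher. Its probe sets 1416007_at (502 against 257) and 1436182_at (251 against 85.6) were higher too, whereas 1439449_at was lower in TIF1γ Δ/Δ cells, with 18.9 against 36.0. Mef2c, a MADS-box factor that favours lymphoid over myeloid fate, gave 1067 in TIF1γ Δ/Δ cells and 532 in wild type cells. That is 2.04-fold higher, just past the 2-fold line, and all 5 of its probe sets were higher, by a log2 of 0.50 to 1.03.

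Ikaros itself, Ikzf1, gave 1321 in TIF1γ Δ/Δ cells and 1101 in wild type cells (log2 0.29). Its other probe set was below the TIF1γ Δ/Δ floor (2.92 against 16.3). Helios, Ikzf2, gave 523 in TIF1γ Δ/Δ cells and 431 in wild type cells (log2 0.31), but its dimmer probe set 1456956_at gave 37.7 against 77.2, a log2 of -1.01. For these Ikaros family genes the representative probe set was slightly higher and a dimmer one lower on the TIF1γ Δ/Δ array. For Ikzf1 the lower one is a bound (log2 -0.46) whose direction was fixed by the floor. Sox4, an SRY-box factor needed for early B cell progenitors, gave 1812 in TIF1γ Δ/Δ cells and 1083 in wild type cells (log2 0.77). Of its 6 probe sets measured on both arrays 4 were higher, and 1419157_at gave 15.9 against 179, a log2 of -3.47. Among member probe sets measured on both arrays none was further apart, and it runs against the brighter Sox4 probe sets.

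Foxp1, a forkhead factor that acts at the Rag genes in early B cells, gave 385 in TIF1γ Δ/Δ cells and 307 in wild type cells (log2 0.35). Of its 6 probe sets measured on both arrays 5 were higher, the exception being 1438802_at with 33.6 against 84.1 (log2 -1.30). Bcl11a, a zinc finger factor required for lymphoid progenitors, gave 652 in TIF1γ Δ/Δ cells and 804 in wild type cells (log2 -0.28). Its 6 measured probe sets were split 3 and 3 in direction and none was 2-fold apart. Of the priming factors, then, Mef2c was the one whose measured probe sets were all higher, beside Ikzf1, which had 1 such probe set.

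**Figure D3:**
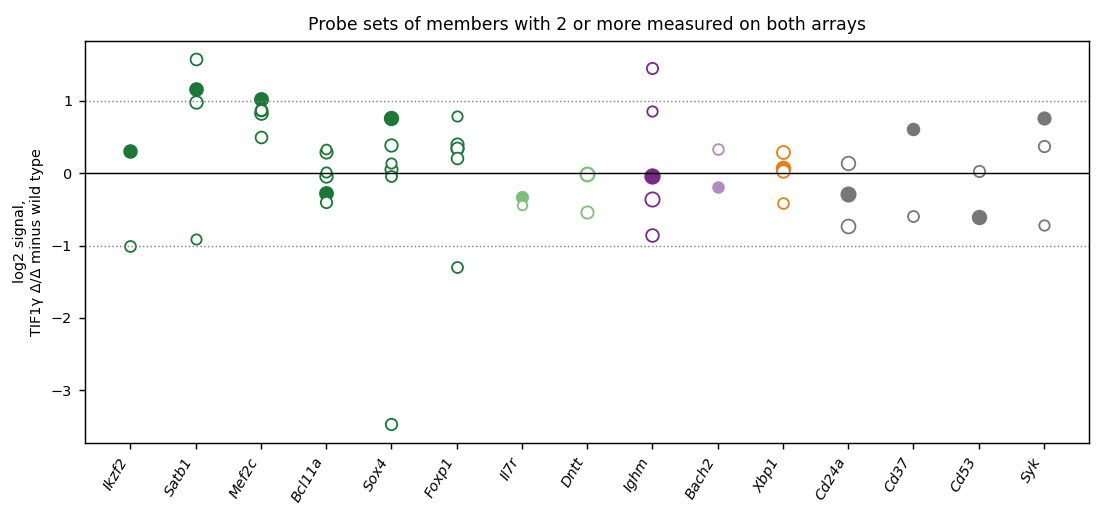
Difference in log2 signal (TIF1γ Δ/Δ minus wild type) of every probe set measured on both arrays, for the 15 members that have 2 or more. Filled symbols are the representative probe sets, symbol size grows with signal, and dotted lines mark 2-fold; Mef2c lies above 0 throughout, Il7r and Dntt below it, and 1 Sox4 probe set lies at -3.47.

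Of the other early genes, those of the IL-7 receptor, lymphotoxin and V(D)J recombination, 1 of 5, Rag1, was at least 2-fold lower. Of all genes with a fold, 6.16% were that much lower. The median was -0.81 over the 5 and -0.57 over the 4 measured on both arrays, which were all below 0. Il7r, the receptor chain that drives lymphoid progenitor growth, gave 77.5 in TIF1γ Δ/Δ cells and 99.0 in wild type cells (log2 -0.33). Ltb, lymphotoxin beta, gave 138.8 in TIF1γ Δ/Δ cells and 248 in wild type cells (log2 -0.81). Dntt, the terminal transferase that adds bases at V(D)J joints, was near even, with 3086 in TIF1γ Δ/Δ cells and 3174 in wild type cells (log2 -0.017), and was slightly above 0 with quantile scaling (log2 0.090) or loess (log2 0.053). A second Dntt probe set was as close (log2 -0.016) and the dimmest, 1420166_at, gave 219 against 325 (log2 -0.54).

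The recombinase genes lie next to each other on chromosome 2 in the GRCm38.p6 annotation and act as one enzyme. Rag1 gave 20.6 in TIF1γ Δ/Δ cells and 44.6 in wild type cells, 2.13-fold lower. Rag2 lay below the TIF1γ Δ/Δ floor (9.91) and at 22.8 on the wild type array, at least 1.92-fold lower. Both thus stood within a few fold of the floor on either array.

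The 21 later genes had a median of -0.48 over the 17 with a fold. Of these, 7 passed the floor through the wild type array alone and 1 through the TIF1γ Δ/Δ array alone, which fixed their direction. The 9 measured on both arrays were 7 below 0 and 2 above, with the same median. Of the 17, 4 reached 2-fold, all lower in TIF1γ Δ/Δ cells (Igll1, Vpreb1, Blnk and Ms4a1). That is 23.5%, against 6.16% of all genes with a fold and 12.6% of those with a mean signal under 50. Of these 4, Blnk and Ms4a1 passed the floor through the wild type array alone, and the Igll1 probe sets disagreed in direction. Commitment genes were at the limit of the measurement in both sorts. Ebf1, the B lineage specification factor, had 5 probe sets and Pax5, the commitment factor, had 2, all under the floor on both arrays. Cd79a, the Ig-alpha chain of the B cell receptor, gave 9.47 in TIF1γ Δ/Δ cells and 12.6 in wild type cells, under both floors. No fold is given for these genes, and they set no difference between the genotypes.

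Vpreb1, the variable-like part of the surrogate light chain, has 1 probe set assigned to it alone. It gave 43.1 in TIF1γ Δ/Δ cells and 269 in wild type cells, 6.14-fold lower. A probe set assigned to both Vpreb1 and Vpreb2 did not show this, with 19.4 in TIF1γ Δ/Δ cells and 17.9 in wild type cells (log2 0.14). Igll1 (lambda 5), the constant-like part and next to Vpreb1 on chromosome 16, gave 13.8 in TIF1γ Δ/Δ cells and 75.3 in wild type cells, 5.36-fold lower. That probe set, 1420176_x_at, is of a kind that can bind related transcripts, and the other Igll1 probe set, 1420177_at, ran the opposite way. It gave 27.5 in TIF1γ Δ/Δ cells and 11.8 in wild type cells, at least 1.94-fold higher, so the direction of Igll1 is not settled by these probe sets. Vpreb3, which binds immunoglobulin chains early in their assembly, gave 7.999 in TIF1γ Δ/Δ cells and 17.5 in wild type cells, at least 1.47-fold lower.

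Signalling genes of the same stage were lower or near the floor. Blnk, the adaptor that links the pre-B receptor to its downstream kinases, gave 9.68 in TIF1γ Δ/Δ cells and 46.0 in wild type cells, at least 3.88-fold lower. Blk, a Src family kinase of B cells, gave 4.47 in TIF1γ Δ/Δ cells and 15.1 in wild type cells. Cd79b, the Ig-beta chain, gave 128 in TIF1γ Δ/Δ cells and 182 in wild type cells (log2 -0.48). Only Blnk passed 2-fold here, and the Blk bound of log2 -0.35 is little beyond what the unequal floors give.

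Ighm, the immunoglobulin mu heavy chain, whose locus is known to give transcripts even before it is rearranged, was near even. Its representative probe set gave 5169 in TIF1γ Δ/Δ cells and 5409 in wild type cells (log2 -0.042). The next, 1427329_a_at, gave 3210.2 in TIF1γ Δ/Δ cells and 4186 in wild type cells (log2 -0.36). Of 11 Ighm probe sets 5 were measured on both arrays, 2 higher and 3 lower, from a log2 of -0.86 (1425385_a_at) to 1.45 (1427870_x_at, 119 against 44.5). Immunoglobulin probe sets can share sequence with other immunoglobulin genes, so their disagreement leaves Ighm uncertain beyond its brightest probe sets.

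The letters upstream of the members at least 2-fold apart are shown next, to set the higher factors beside the lower recombinase and pre-B genes. Each run is the 250 bases before the annotated start (RefSeq, GRCm38.p6, gene strand, the most upstream start where a gene has several). Capitals mark E boxes, written CAGNTG and searched on both strands, the core bound by E proteins such as the E2A product that act with EBF1 at early B cell genes. Cd52 and Ms4a1 are named only.
Satb1, chr17:51833291-51833540, minus strand: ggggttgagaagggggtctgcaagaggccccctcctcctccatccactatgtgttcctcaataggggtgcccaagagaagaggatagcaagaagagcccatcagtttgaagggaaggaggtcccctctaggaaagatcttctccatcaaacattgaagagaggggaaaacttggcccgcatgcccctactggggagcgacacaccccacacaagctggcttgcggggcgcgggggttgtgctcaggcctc
Mef2c, chr13:83503784-83504033, plus strand: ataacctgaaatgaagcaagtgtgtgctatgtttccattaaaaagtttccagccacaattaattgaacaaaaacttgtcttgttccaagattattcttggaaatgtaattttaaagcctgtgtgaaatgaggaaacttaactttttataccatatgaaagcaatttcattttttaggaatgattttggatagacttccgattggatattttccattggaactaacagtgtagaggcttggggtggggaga
Rag1, chr2:101649533-101649782, minus strand: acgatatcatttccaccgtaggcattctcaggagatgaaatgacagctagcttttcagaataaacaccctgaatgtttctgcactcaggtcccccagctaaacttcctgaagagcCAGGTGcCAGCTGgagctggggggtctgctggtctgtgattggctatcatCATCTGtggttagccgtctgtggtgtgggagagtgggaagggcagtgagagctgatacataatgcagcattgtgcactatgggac
Igll1, chr16:16863986-16864235, minus strand: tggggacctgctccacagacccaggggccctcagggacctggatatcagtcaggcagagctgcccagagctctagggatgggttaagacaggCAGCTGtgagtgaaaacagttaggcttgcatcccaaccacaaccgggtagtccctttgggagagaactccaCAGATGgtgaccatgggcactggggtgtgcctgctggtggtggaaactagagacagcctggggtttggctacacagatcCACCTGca
Vpreb1, chr16:16869256-16869505, minus strand: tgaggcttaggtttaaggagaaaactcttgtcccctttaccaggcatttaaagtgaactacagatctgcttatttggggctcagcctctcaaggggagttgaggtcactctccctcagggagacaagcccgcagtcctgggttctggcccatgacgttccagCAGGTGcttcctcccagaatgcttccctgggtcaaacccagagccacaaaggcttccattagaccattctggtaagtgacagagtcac
Blnk, chr19:40994222-40994471, minus strand: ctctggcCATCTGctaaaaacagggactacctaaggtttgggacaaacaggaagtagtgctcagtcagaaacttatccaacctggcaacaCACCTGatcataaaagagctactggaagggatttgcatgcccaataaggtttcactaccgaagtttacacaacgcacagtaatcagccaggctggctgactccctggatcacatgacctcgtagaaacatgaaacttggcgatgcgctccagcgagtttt

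Satb1 has 5 annotated windows and Mef2c 3, of which only the most upstream is printed, and the other printed genes have 1 each. The printed windows of Rag1 and of Igll1 (direction not settled) held 3 E boxes each. That of Blnk held 2 and that of Vpreb1 1, while the printed windows of Satb1 and Mef2c held none. This motif is common: 44.8% of all 32851 windows of this length held it, as did 7 of the 11 early and 11 of the 15 later members found in the promoter table, counting any of a gene's windows. A pair of EBF half-sites, CCCNNGGG, occurred in the Igll1 window and in 11.8% of all windows. An octamer, ATGCAAAT, the sequence read by the Oct factors that Pou2af1 assists, occurred in the Blnk window and in 1.60% of all windows. A PU.1-type site, GAGGAA, occurred in the Satb1, Mef2c and Vpreb1 windows and in 23.3% of all windows. The motifs were chosen after the differences were known, none of their matches overlap in the printed windows, and a match is a stretch of letters and not a bound site. The lack of a match says only that these letters are not in the window. In all, 32 of the 41 members matched the promoter table.

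Mature B cell genes were mostly at the floor. Of 7, 3 were measured in TIF1γ Δ/Δ cells and 6 in wild type cells. Ms4a1, Cd22, Pou2f2 and Spib passed the floor through the wild type array alone, so only Pou2af1 and Bach2 could be compared on both arrays. Ms4a1, which encodes CD20, gave 9.02 in TIF1γ Δ/Δ cells and 127 in wild type cells, at least 10.7-fold lower. Its second probe set gave 8.49 against 68.0, at least 5.74-fold lower, so both were clear of the floor on the wild type array and under it on the other. Pou2af1, the B cell coactivator of Oct factors, gave 49.0 in TIF1γ Δ/Δ cells and 84.5 in wild type cells (log2 -0.76). Bach2, a repressor that holds B cells back from plasma cell fate, gave 42.6 in TIF1γ Δ/Δ cells and 49.2 in wild type cells (log2 -0.19), and its next probe set was higher (log2 0.33).

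The other 4 mature genes had only a bound. Cd22, an inhibitory B cell lectin, gave 6.27 in TIF1γ Δ/Δ cells and 14.8 in wild type cells. Pou2f2 (Oct-2) gave 6.22 in TIF1γ Δ/Δ cells and 14.5 in wild type cells, and the ETS factor Spib gave 6.36 in TIF1γ Δ/Δ cells and 18.2 in wild type cells, at least 1.54-fold lower. Ikzf3 (Aiolos), an Ikaros family factor of later B cells, was the one member measured in TIF1γ Δ/Δ cells only, with 21.4 there and 14.1 in wild type cells, at least 1.51-fold higher. The bounds of Cd22 (log2 -0.32) and Pou2f2 (log2 -0.29) are about the size that the unequal floors give by themselves.

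Plasma cell genes were close to even, with a median of 0.055 over 3 genes and none at 2-fold. Jchain, which joins IgA and IgM into polymers, gave 4439.8 in TIF1γ Δ/Δ cells and 4346 in wild type cells (log2 0.055). Xbp1, the factor of the secretory programme, gave 2118 in TIF1γ Δ/Δ cells and 2042 in wild type cells (log2 0.077). Mzb1, a chaperone of antibody assembly, was lower, with 174 in TIF1γ Δ/Δ cells and 329.9 in wild type cells (log2 -0.90). Prdm1 (Blimp-1), the plasma cell master regulator, gave 10.4 in TIF1γ Δ/Δ cells and 10.03 in wild type cells, under both floors.

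**Figure D4:**
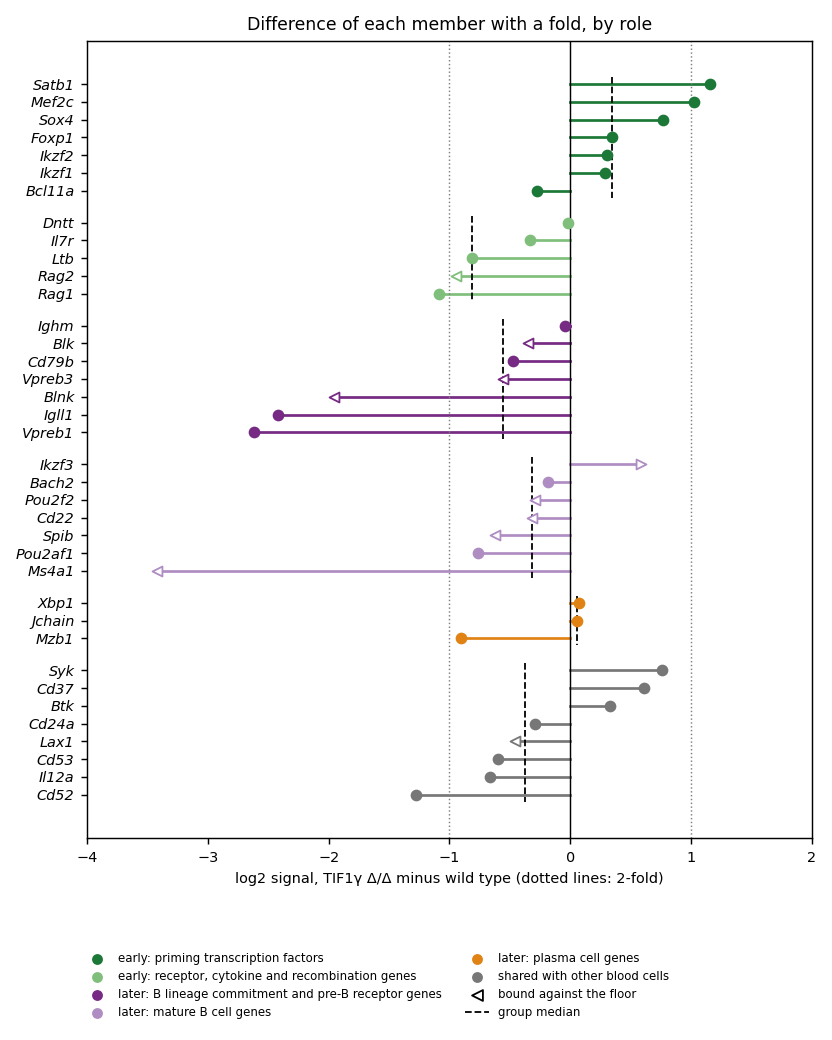
Difference in log2 signal (TIF1γ Δ/Δ minus wild type) of the 37 members with a fold, ordered within each role. Triangles are bounds against the floor, dashed lines group medians and dotted lines 2-fold. Of the 7 priming factors 6 lie right of 0, against 2 of 7 with the mean of all probe sets. The receptor, recombination and pre-B genes lie left of it, although Ighm is at 0.90 with that mean, which takes in probe sets under the floor.

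Of the 8 members shared with other blood cells, the median was -0.37 and Cd52 alone reached 2-fold. Of all genes with a fold, 6.16% were lower by that margin. Cd52, a small surface glycoprotein of lymphocytes and monocytes, gave 1081 in TIF1γ Δ/Δ cells and 2662 in wild type cells, 2.42-fold lower. Cd53, a leukocyte tetraspanin, gave 1252 in TIF1γ Δ/Δ cells and 1931 in wild type cells (log2 -0.60), while Cd24a, the heat-stable antigen, gave 3669.9 in TIF1γ Δ/Δ cells and 4568 in wild type cells (log2 -0.29). A dimmer probe set of each was slightly higher (log2 0.034 for Cd53 and 0.14 for Cd24a). Il12a, a subunit of interleukin 12, gave 43.2 in TIF1γ Δ/Δ cells and 69.5 in wild type cells (log2 -0.66), and the adaptor Lax1 gave 8.52 in TIF1γ Δ/Δ cells and 16.2 in wild type cells, at least 1.37-fold lower.

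The kinases and the tetraspanin Cd37 lay above 0. Syk, the kinase of B cell and Fc receptor signalling, gave 388 in TIF1γ Δ/Δ cells and 233 in wild type cells (log2 0.76), with 2 of 3 measured probe sets higher. Btk, the kinase downstream of it, gave 399.96 in TIF1γ Δ/Δ cells and 324 in wild type cells (log2 0.33). Cd37 gave 166 in TIF1γ Δ/Δ cells and 109.9 in wild type cells (log2 0.61), while its other probe set gave a log2 of -0.59.

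Set side by side, the early genes had a median of 0.14 and the later genes a median of -0.48, a difference of 0.61 on the log2 scale. Over genes measured on both arrays the medians were 0.29 and -0.48, a difference of 0.76. Of the 17 later genes with a fold 7 passed the floor through the wild type array alone, and of the 12 early ones 1. Over the whole array, genes with a mean signal under 50 had a median of -0.27, against 0.13 between 50 and 500. The difference was 0.39 with loess and 0.39 with the same floor on both arrays. The part of signal level in this ordering was not tested. The early group is itself mixed, since its priming factors had a median of 0.35 and its receptor and recombination genes one of -0.81. Over 4534 genes, probe sets of one gene scattered with a log2 SD of 0.45, and 12 of the 15 members with several measured probe sets had them in both directions. With the mean of all probe sets the early median was -0.29, and with members whose measured probe sets ran in 1 direction it was -0.33, while the early genes still lay above the later ones by 0.28 and 0.26. Genes are not replicates of a genotype, so this ordering describes the 2 arrays and has no test.

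Other genes of the same programmes, taken from lists by role, are given for context. Of 31 further lymphoid progenitor genes with a fold, 5 (16.1%) were lower and 1 (3.23%) higher by 2-fold or more. Their median was -0.047, and 6.16% of all genes with a fold were that much lower and 2.6% higher. Of the 31, 4 passed the floor through the wild type array alone, which fixed their direction, and the 5 lower include such a bound. The 27 measured on both arrays had a median of 0.071. Jak3, the kinase of the common gamma chain receptors, was higher, with 99.6 in TIF1γ Δ/Δ cells and 36.0 in wild type cells (log2 1.49). Cxcr4, the receptor for CXCL12 in marrow, gave 132 in TIF1γ Δ/Δ cells and 816 in wild type cells (log2 -2.60). Id2, an inhibitor of E proteins, gave 207 in TIF1γ Δ/Δ cells and 1046 in wild type cells (log2 -2.31). Ly6d, a marker of B-biased lymphoid progenitors, gave 12.3 in TIF1γ Δ/Δ cells and 50.5 in wild type cells (log2 -2.02).

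Of all genes with a fold, 6.16% were lower and 2.6% higher by 2-fold or more. Of 35 further B lineage genes with a fold, 11 (31.4%) were lower and 1 (2.86%) higher, and the median was -0.31. Of the 35, 2 passed the floor through the wild type array alone, and the 11 lower include such a bound. The 33 measured on both arrays had a median of -0.21. The 4 furthest apart were Ly86 (log2 -3.43), H2-Eb1 (log2 -3.25), Cd74 (log2 -2.36) and H2-Ab1 (log2 -2.20). These are genes of antigen presentation and of the RP105 receptor complex, which macrophages and dendritic cells also use. The higher one was Pik3ap1, a phosphoinositide kinase adaptor of B cells (log2 1.53).

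Many markers of mature blood cells, which a lineage-negative sort is meant to remove, were lower in TIF1γ Δ/Δ cells too. Of all genes with a fold, 6.16% were lower by 2-fold or more and 2.6% higher. All 21 neutrophil and macrophage markers with a fold were lower by 2-fold or more, S100a9 by at least 688-fold, Chil3 by at least 268-fold, Lcn2 by at least 188-fold and Camp by 306-fold. At or above the floor were 8 in TIF1γ Δ/Δ cells and 21 in wild type cells. The 13 measured on the wild type array only had their direction fixed by that. The 8 measured on both arrays had a median of -5.34. The list summed to 794 in TIF1γ Δ/Δ cells and 41037 in wild type cells. Erythroid markers were lower by 2-fold or more in 8 of 12, among them Slc4a1 (log2 -3.91) and Ermap (log2 -1.77), with sums of 3720.2 in TIF1γ Δ/Δ cells and 7475 in wild type cells. Of these 12, 3 passed the floor through the wild type array alone, and the 9 measured on both arrays had a median of -1.38. Of 14 T cell and NK cell markers with a fold 5 were lower by 2-fold or more. Among them were Klrd1 (log2 -1.93), Ccl5 (log2 -1.31), Gzma (at least 4.26-fold) and Cd3d (at least 2.38-fold). Cd3e and Cd4 were under the floor on both arrays. Of the 14, 7 passed the floor through the wild type array alone, which fixed their direction. The 7 measured on both arrays had a median of -0.14, and 2 of the 14 lay above 0. The list summed to 1498 on the TIF1γ Δ/Δ array and to 1919.6 on the wild type array. Plasmacytoid dendritic cells share several early lymphoid genes with B cell progenitors; of 10 of their markers with a fold 2 were lower by 2-fold or more (Ccr9 and Tlr7) and 1 higher (Ptprs), Siglech was under the floor on both arrays, and 6 of the 10 were below 0, with a median of -0.72. Of the 10, 1 passed the floor through the wild type array alone, and the 9 measured on both arrays had a median of -0.64. The list summed to 1594 in TIF1γ Δ/Δ cells and 1605 in wild type cells. Of this, Tcf4 gave 608 in TIF1γ Δ/Δ cells and 519 in wild type cells. Ptprs gave 391 in TIF1γ Δ/Δ cells and 179.9 in wild type cells. In sorted cells measured in bulk, fewer cells of a type and less RNA per cell cannot be told apart. The part of these other cells in the differences of Cd52, Ms4a1, Blnk and the other members was not tested.

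**Figure D5:**
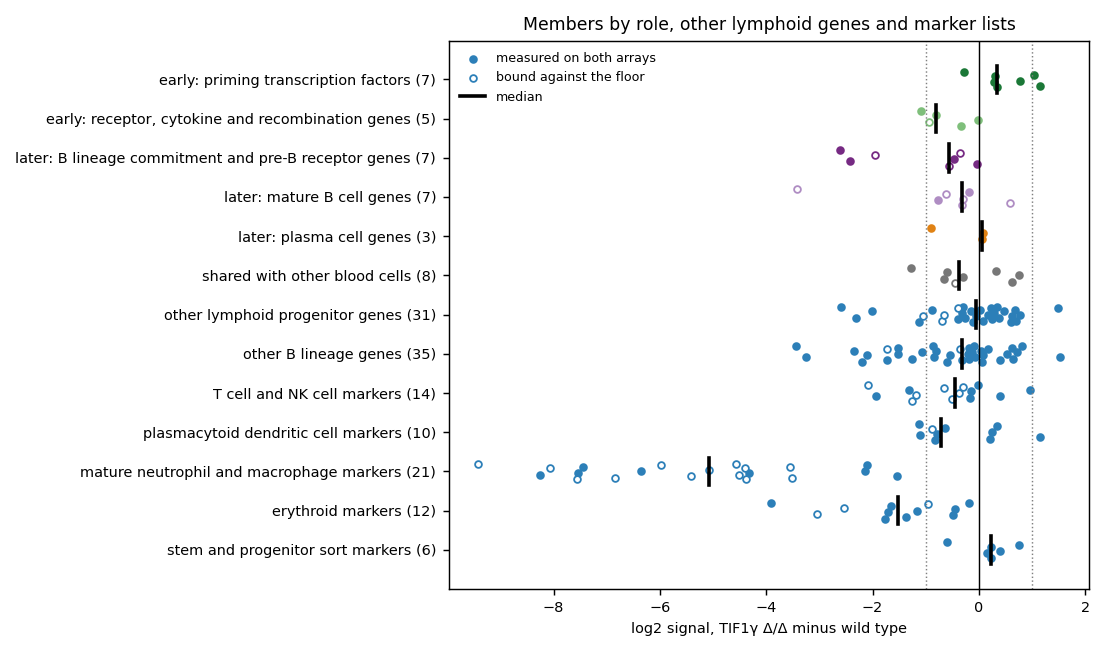
Difference in log2 signal (TIF1γ Δ/Δ minus wild type) of single genes in the member groups, in other lymphoid lists and in marker lists, with the number of genes with a fold in brackets and the list median as a black bar. Open points are bounds; the priming factors and the sort markers have medians above 0 (0.35 and 0.23), and the neutrophil and macrophage markers have a median of -5.08.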

How the data were processed

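RNA of 2 KLS samples, 1 per genotype, was measured on 2 Affymetrix arrays. The deposited values are signal intensities on a linear scale, which the authors computed using MAS5, per the submitters' processing notes. Its version, filters and detection calls were left unstated (not given in the sources used here). The 2% trimmed mean of the 45101 probe sets was 100 on both arrays, so they had been scaled array by array. Per the labels' protocols, cRNA was made with the Affymetrix two-cycle assay.

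Of the probe sets, 64 controls were left out, 34945 had a single gene, 932 several and 9160 none by the platform annotation. Entrez identifiers updated the symbols of 34741 single-gene probe sets to RefSeq GRCm38.p6. Log2 differences, floors at the 50th percentile and bounds were computed as described above. A bound under 1-fold was given no fold. The members, role groups and lists were chosen with earlier results of these data known. All members are named, with up to 4 genes at least 2-fold apart per other list. Pik3ap1 and Tcf4 lie outside this rule and were chosen after their values were seen. Cd3e, Cd4, Siglech and the sort markers Kit, Flt3 and Ly6a lie outside it too. There is no replicate, so there is no test, and precision is limited by the number of arrays. The procedure was tested on simulated data, with known folds put into genes well above the floor and equal on every probe set of a gene. That test does not cover genes near the floor or genes whose probe sets disagree. Alternatives covered scaling, floor, probe set rule, a pseudocount, fold threshold, probe set agreement and bounds. Python 3.11.15, numpy 2.4.6, pandas 2.3.3, statsmodels 0.14.6 and matplotlib 3.10.9 were used.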

Additional observations from a re-analysis of the deposited data

Results flagged for a closer look

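One probe set outside the comparison, 1422416_s_at, is assigned to both Vpreb1 and Vpreb2 and so was used for neither. It gave 19.4 in TIF1γ Δ/Δ cells and 17.9 in wild type cells (log2 0.14), a signal slightly above that of the wild type array and near both floors. The probe set assigned to Vpreb1 alone gave 43.1 in TIF1γ Δ/Δ cells and 269 in wild type cells. The difference between the genotypes was not tested for either probe set, and neither was its cause.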

How the results depend on the processing

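No paired analysis was possible because each genotype has 1 array, and for the same reason no array could be left out. Settings are compared with the scatter of probe sets, since there is no replicate spread. The mean of all probe sets took in probe sets under the floor. The later genes had a negative median, and the early genes lay above them, under every alternative run. The early median was positive except with the mean of all probe sets (-0.29) and with probe sets in 1 direction only (-0.33), and it was 0.29 without bounds. Members higher by the fold threshold, 2-fold unless stated, numbered 1 with quantile scaling, loess, the 65th percentile floor or probe sets in 1 direction. They numbered 0 with the mean of all probe sets or at a 3-fold threshold, and 6 at a 1.5-fold one. Of all genes, 2.94% were 2-fold higher with quantile scaling, 2.41% with loess, 1.87% at the 65th percentile floor and 2.39% with the mean of probe sets. Members lower by that threshold numbered 12 at the 40th percentile floor, 13 with no floor and 13 at a 1.5-fold threshold, against 6. They numbered 4 at the 65th percentile floor or at a 3-fold threshold. With quantile scaling, the pseudocount or without probe sets of shared or cross-hybridising types they numbered 5. Of all genes, 7.40% were 2-fold lower at the 40th percentile floor and 15.3% with no floor. The share was 4.52% at the 65th percentile floor, 4.87% with quantile scaling, 2.33% with the pseudocount and 6.13% without the shared types. No share over all genes is given for the 1.5-fold and 3-fold thresholds or for probe sets in 1 direction. The median of all members was -0.17 with quantile scaling, -0.17 with loess, -0.45 at the 40th percentile floor, -0.21 with the same floor on both arrays, -0.42 with the mean of probe sets, -0.56 with probe sets in 1 direction and -0.19 without bounds. The later median was -0.28 with quantile scaling, -0.27 with loess, -0.87 at the 40th and -0.59 at the 65th percentile floor, -0.28 with the same floor, -1.01 with no floor and -0.59 with probe sets in 1 direction. The early minus later difference was 0.44 with quantile scaling, 0.39 with loess, 1.04 at the 40th and 0.81 at the 65th percentile floor, 0.39 with the same floor, 1.24 with no floor, 0.28 with the mean of probe sets, 0.26 with probe sets in 1 direction and 0.76 without bounds. Among members 2-fold apart, Igll1 alone reversed, to 0.96 without probe sets of those types. Of the rest, the mean of all probe sets put Ikzf1 at -1.09, Ikzf2 at -1.17, Sox4 at -0.17 and Ighm at 0.90, each on the other side of 0, and Foxp1 (-0.030), Dntt, Cd24a, Jchain and Xbp1 also crossed 0 under at least 1 setting. Vpreb1, Cd52, Rag1 and Blnk have 1 single-gene probe set each, so settings of the probe set rule could not change them. The probe set shared by Vpreb1 and Vpreb2 entered no setting. Vpreb1, Ms4a1 and Cd52 stayed at least 2-fold lower under all 10 settings of scaling, floor, probe set rule and pseudocount. Mef2c was at least 2-fold higher under 6 and Satb1 under 9. Rag1 was at least 2-fold lower under 5, Igll1 under 8 and Blnk under 9. The cause of these shifts was not tested. Signals near the floor limit Rag1, Rag2, Blnk and the mature B cell genes.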

Other observations

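Immunoglobulin constant region probe sets, chosen after their values were seen, are given here as values only. Those of Igha, the heavy chain of IgA, which class-switched B cells and plasma cells make, stood higher in TIF1γ Δ/Δ cells in 3 of 3 probe sets. They gave 5432 in TIF1γ Δ/Δ cells and 3297 in wild type cells (log2 0.74), 5156 and 2419 (log2 1.12), and 2857 and 1503 (log2 0.95). The 3 probe sets assigned to Igkc together with kappa variable genes were near even, from a log2 of -0.26 (5794 in TIF1γ Δ/Δ cells and 7057 in wild type cells) to -0.011. A probe set for Iglc1 and Iglv1 gave 499 in TIF1γ Δ/Δ cells and 495 in wild type cells (log2 0.036). Of the 4 Ighg3 probe sets 3 were under the floor on both arrays, and the other gave 34.4 in TIF1γ Δ/Δ cells and 9.96 in wild type cells, below the floor there. Among the members, Ebf1, Pax5, Cd79a and Prdm1 were under the floor on both arrays. Others of the same groups were measured on both, among them Jchain (4440 in TIF1γ Δ/Δ cells and 4346 in wild type cells), Xbp1 (2118 and 2042), Mzb1, Cd79b and Pou2af1. The source of the immunoglobulin signals was not tested.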
